A study of Saccharomyces cerevisiae with 18 samples.

Results

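RNA from budding yeast, Saccharomyces cerevisiae, that lacked the histone deacetylase gene RPD3 was compared directly with RNA from yeast whose histone H3 lacked its N-terminal tail (residues 1 to 28) and that kept RPD3. The comparison rests on 4 of the 18 one-colour Affymetrix YG_S98 arrays of the series, chosen by their titles: 2 of strain NSY430 (RPD3 deletion) and 2 of strain NSY458 (H3 tail deletion). In each genotype replicate 1 was sampled on 1 day (day A) and replicate 2 on a later day (day B), so both genotypes shared both days. Wild type (n = 3) and the strain with both the RPD3 deletion and the H3 tail deletion (n = 2) are used to place these values. All 18 arrays also set the floor, the filter on low signals and the spread used in the tests. The remaining arrays were of strains with an H3 lysine substitution, an H4 tail deletion, an H4 lysine substitution, or that H4 lysine substitution together with the RPD3 deletion. The sources used here do not state the rest of the genotypes, the mating type, the growth conditions or whether the replicates were separate cultures, so p-values measure only how far these arrays vary, and that variation may be technical.

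Rpd3 is the catalytic subunit of protein complexes that remove acetyl groups from lysines, most of them on the tails of histones H3 and H4. The protein has no DNA-binding domain of its own and is brought to promoters by factors such as Ume6, which represses early meiotic genes and INO1, and Ash1, which represses HO. The N-terminal tail of H3 carries several of the lysines that Rpd3 acts on. Together with the H4 tail it also binds the Sir proteins and other factors that hold genes near telomeres and at the silent mating-type loci at a low level. In 1 mutant the enzyme is thus missing and in the other a part of its substrate.

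Each value is a signal on a linear scale in arbitrary units, scaled by the authors so that all arrays share a trimmed mean, and signals under 140.2 were read as that floor in the tests. A fold with 1 array of a group under the floor is therefore computed with that array at the floor and is a lower bound. Of 9275 probe sets that are not controls, 7851 passed the filter on low signals. Of these, 6080 named 1 gene each and stood for 5447 genes. The targeted gene bore out the labels: RPD3 read 25.8 and 9.4 on the RPD3 deletion arrays, 694 and 975 on the H3 tail deletion arrays, and 1001, 959 and 690 on the wild-type arrays. Log2 signals correlated at r = 0.967 across probe sets between the RPD3 deletion arrays, at 0.977 between the H3 tail deletion arrays, and at 0.961 (day A) and 0.951 (day B) between the genotypes. The array header of H3 tail deletion replicate 2 names another strain, NSY438, which the labels give to the H4 tail deletion. That array correlated at 0.977 with the other H3 tail deletion array and at 0.935 with the H4 tail deletion mean, and counts without it are given beside the main lists. The ratio of 3' to 5' actin signal, a measure of RNA quality, was close to even between the RPD3 deletion arrays (1.68 and 1.66) and less so between the H3 tail deletion arrays (1.85 and 1.44), and its part in the results was tested only as a covariate, with which 187 probe sets were called.

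With all 18 arrays in 1 limma fit, 186 of 7851 probe sets (2.37%) differed between the mutants at a Benjamini-Hochberg adjusted p of 0.05. Signals were higher in the RPD3 deletion than in the H3 tail deletion for 71 probe sets (0.904%) and lower for 115 (1.46%). The lower ones also differed by more: their median log2 difference was -1.57 against 1.13 for the higher ones, and 30 of them differed at least 4-fold against 5 of the higher ones. Among the 30 were RPD3 itself, more than 1 probe set each of COS8 and COS7, and a probe set of FAS1, whose probe sets disagree. They are therefore not 30 separate genes. In all 146 probe sets (1.86%) were both called and at least 2-fold apart. Taken by gene, 125 genes (2.29%) differed, 54 higher (0.991%) and 71 lower (1.3%), while the median over all genes was 0.06. None of the 186 probe sets had overlapping groups, and in each the sign was the same on both days. Groups without overlap always have the same sign on both days, and calling large differences favours such groups. Neither is therefore separate support for the calls. Groups did not overlap in 37.8% of all probe sets tested (19.7% higher and 18.1% lower) and in 40.1% of all genes. The differences of day A and day B correlated at r = 0.574 across probe sets.

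The count rests on the spread shared with the other 6 groups. In limma with only the 4 arrays 0 probe sets passed, while 384 were higher and 510 lower at an unadjusted p of 0.05, and with the sampling day as a block in these 4 arrays again 0 passed, with 476 and 525. The 18-array fit gave 500 and 555 at that unadjusted p. With the sampling day as a block over 18 arrays 271 passed, 96 higher and 175 lower, and 161 of the 186 were among them. Without RPD3 deletion replicate 2 there were 97 (35 higher, 62 lower), without H3 tail deletion replicate 2 there were 104 (47 and 57), and without H3 tail deletion replicate 1 the higher ones numbered 24. Of the 55 called genes chosen by the naming rule, 18 kept their call in each of the 4 leave-one-out fits, among them RPD3, COS8, COS7, COS4, COS10, FIT1, BNA2, SPO75, MPC3, LEU2, ECI1 and MLO1. In each of these fits 25 to 30 of the 55 lost it, and 13 lost it in all 4, namely INO1, COX5B, FAR1, AAC3, CRS5, RSC8, ARN2, SPS19, UTP22, UTP25, FKH1, AIM20 and HPA2. HO kept its call only without RPD3 deletion replicate 1.

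**Figure D1:**
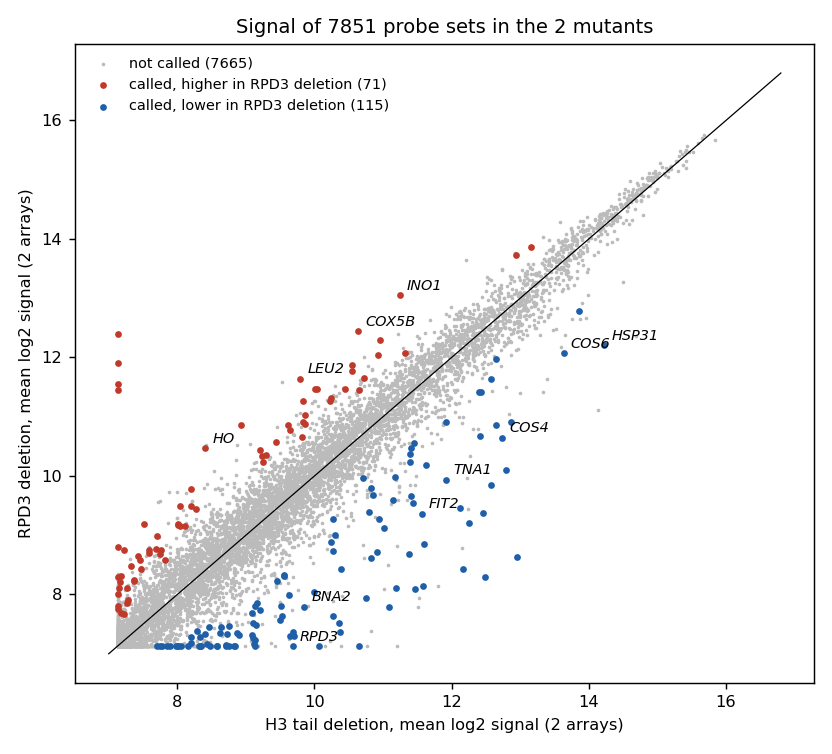
Mean log2 signal of each of 7851 probe sets in the H3 tail deletion (x axis, 2 arrays) and the RPD3 deletion (y axis, 2 arrays), with signals under the floor set to it; red points were called higher and blue points lower in the RPD3 deletion, and grey points were not called. The 115 blue points reach farther from the diagonal than most of the 71 red ones, with the COS genes, HSP31, TNA1 and FIT2 among them.

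The chromosome a gene lies on divided the higher genes. Genes of chromosome IX had signals shifted upward in the RPD3 deletion as a group: the median log2 difference of its 193 tested genes was 0.58 (1.50-fold), with 0.63 on day A and 0.51 on day B, and 86.5% of the genes were above 0. On the other 15 chromosomes the medians lay between -0.07 and 0.09. At an unadjusted p of 0.05, 97 of its genes were higher and 11 lower. After adjustment over all probe sets 23 (11.9%) were called higher and 3 lower, against 31 higher (0.591%) and 68 lower among 5246 genes of the other nuclear chromosomes. Chromosome IX thus held 42.6% of the genes called higher and 3.54% of the genes tested. This set was picked after its values were seen, so these numbers are a description.

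The shift ran along the whole chromosome, and the RPD3 deletion arrays stood apart from the other 16. In 4 equal stretches of the gene order of chromosome IX the medians were 0.47, 0.69, 0.57 and 0.57. Against the wild-type mean, and relative to the other chromosomes, its median stood 0.76 and 0.61 higher on the RPD3 deletion arrays and 0.10 and 0.11 higher on the H3 tail deletion arrays, on the log2 scale. On all 16 arrays of the other genotypes it lay between -0.03 and 0.16, and the double mutant, which also lacks RPD3, read 0.07 and 0.12. The shift was as large in genes with a mean signal of 500 or more (127 genes, median 0.59, 113 above 0). The number of copies of chromosome IX in strain NSY430 was not tested. Leaving out any 1 of the 4 arrays kept the median between 0.50 and 0.64 but gave 9 to 13 higher genes, 13 of them without H3 tail deletion replicate 2. With the genes of this chromosome left out of the fit, 45 probe sets were higher and 104 lower.

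**Figure D2:**
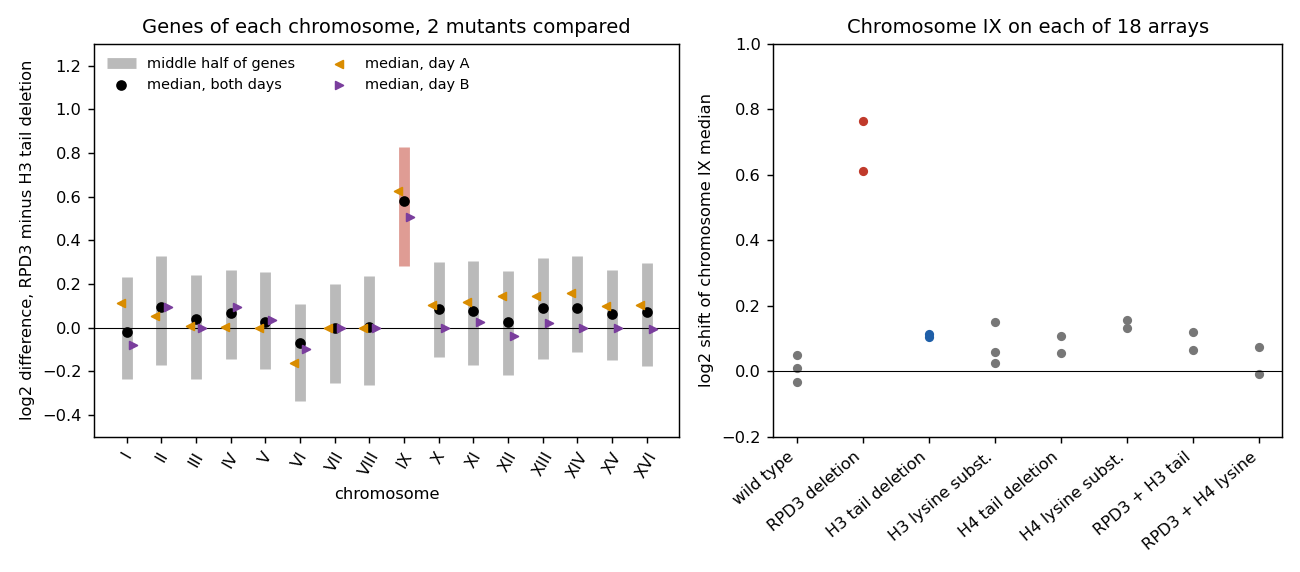
Left, log2 difference (RPD3 deletion minus H3 tail deletion) of the genes of each nuclear chromosome, as the median over both days (black), the medians of day A and day B (triangles) and the range from the lower to the upper quartile (bars). Right, the median of chromosome IX on each of 18 arrays relative to the wild-type mean and to the other chromosomes (log2), where the RPD3 deletion arrays read 0.76 and 0.61 and no other array exceeds 0.16.

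Among the chromosome IX genes called higher, COX5B, the low-oxygen form of a cytochrome oxidase subunit, read 4646 and 6694 in the RPD3 deletion and 1360 and 1873 in the H3 tail deletion. The groups did not overlap, and the difference of 1.80 ± 0.39 (log2, SE) was 3.49-fold (adjusted p = 0.0246). GAT4, which encodes a protein of the GATA zinc-finger family, read 376 and 526 against 85.7 and 107, at or under the floor on both H3 tail deletion arrays, and was thus at least 3.17-fold higher (adjusted p = 2.67e-05). CSM2, which acts in recombination repair, differed by 1.67 and ATG45 by 1.46. The 23 differences ran from 0.79 to 1.80 with a median of 1.07, and these genes are of unlike function, such as the exocyst subunit SEC6, the cell-cycle regulator FKH1, the mitochondrial carrier FLX1 and the actin-organising subunit ARC15. With each array's chromosome IX median brought to that of the other chromosomes, CSM2, GAT4 and ATG45 were the 3 of its genes still called higher, and 9 were called lower: DCG1, DAL4, YIR043C, DAL1, BAR1, FLO11, POT1, PAN1 and PAU15. The 3 chromosome IX genes called lower without this step, named here after their values were seen, were DCG1 (-1.85), the allantoin permease gene DAL4 (-1.64) and YIR043C (-1.58).

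Off chromosome IX, HO and INO1, on which Rpd3 is known to act, were among the 3 genes with the largest positive differences. HO, the endonuclease that starts mating-type switching, read 967 and 2074 without RPD3, 313 and 370 without the H3 tail, and 601, 359 and 229 in wild type. Both RPD3 deletion arrays were above all of these others, and the difference of 2.06 ± 0.40 was 4.16-fold (adjusted p = 0.0145). INO1, which makes inositol phosphate for phospholipid synthesis, read 7831 and 9225 against 2328 and 2520, a 3.51-fold difference (1.81 ± 0.39, adjusted p = 0.023). All 4 of these arrays were above the wild-type values of 1004, 475 and 882, so the H3 tail deletion was itself above wild type, and the double mutant read 6678 and 3205. FAR1, which arrests the cell cycle in response to pheromone, read 2164 and 1604 against 901 and 685 (1.25 ± 0.29, adjusted p = 0.0334), and both mutants lay under the wild-type values of 5049, 2691 and 4050.

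The other genes with large positive differences came from several pathways. LEU2, a leucine synthesis gene that is also much used as a selectable marker, read 3080 and 3302 against 755 and 1046 (1.84 ± 0.27, adjusted p = 0.00168), and its other 2 probe sets differed by 0.72 and 1.85. LEU1, the preceding enzyme of that pathway, differed the other way, with 765 and 785 against 1915 and 2693 (-1.55 ± 0.29, adjusted p = 0.0104). Whether the strains carry LEU2 as a marker is not given in the sources used here. ECI1, a peroxisomal enzyme for the oxidation of unsaturated fatty acids, read 754 and 1032 against 267 and 324, a 3.00-fold difference. ERG28, which holds enzymes of ergosterol synthesis together, read 5316 and 4792 against 2195 and 1782 (1.35 ± 0.24), whereas ERG1, the squalene epoxidase, was lower (-0.66 ± 0.16). CRS5, a copper-binding metallothionein, was 2.70-fold higher, and AAC3, the ADP/ATP carrier induced when oxygen is low, 2.21-fold. MLO1 (2.70-fold), ICS2 (2.74-fold) and HRI1 (2.50-fold) completed the 12 largest with COX5B, CSM2 and ATG45, and the other 2 probe sets of ICS2 differed by 0.83 and 0.73.

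**Figure D3:**
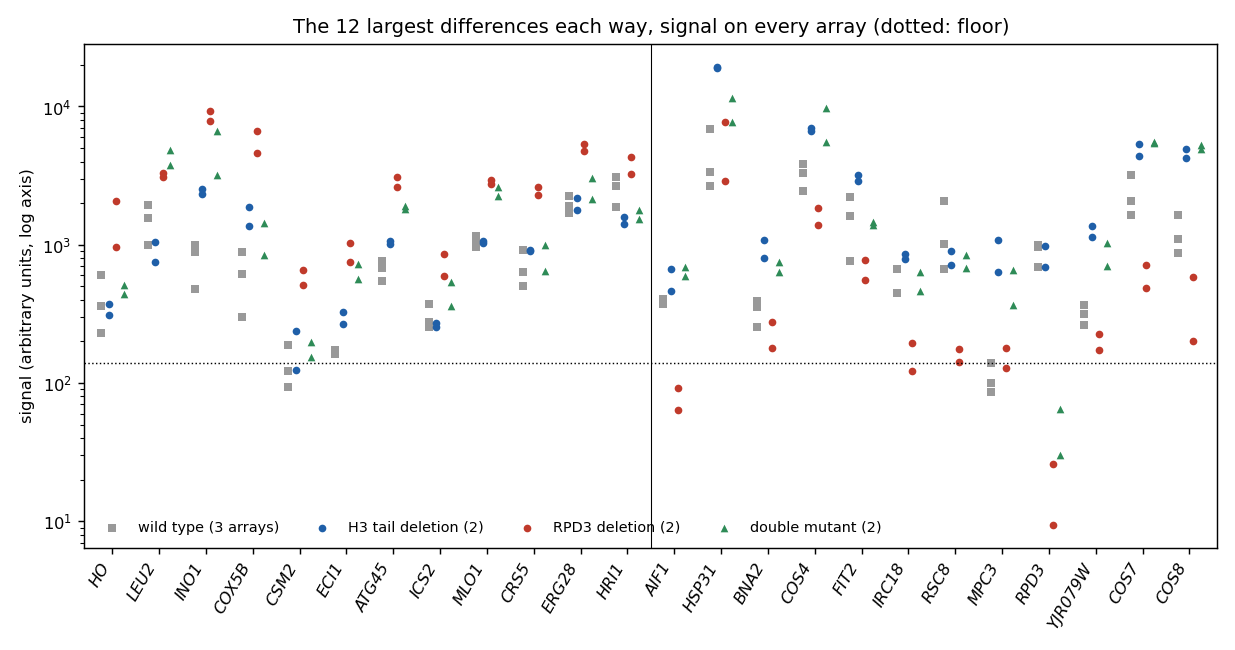
Signal on each array (log axis, arbitrary units) of the genes with the 12 largest called differences each way, for both RPD3 deletion arrays, both H3 tail deletion arrays, wild type and the double mutant. COS8, COS7 and FIT2 sit lower on both RPD3 deletion arrays and HO and INO1 higher, with no overlap between the 2 genotypes compared.

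Genes of meiosis lay on both sides, early ones mostly above 0 and later ones mostly below. Of 28 early meiotic genes 20 passed the filter on low signals, and 3 of these were higher and none lower in the RPD3 deletion, against 0.991% of all genes called higher, with 16 differences above 0 and a median of 0.34 against 0.06 over all genes. REC102, needed for the DNA breaks that start recombination, read 465 and 346 against 98.7 and 213 (1.22 ± 0.21, adjusted p = 0.00641). The recombinase gene DMC1, with 841 and 909 against 378 and 432, differed by 1.11 but did not pass (adjusted p = 0.0766). ZIP2, of the complex that starts chromosome synapsis, read 228 and 217 against values under the floor and was at least 1.59-fold higher. The third, HOP1, a protein of the meiotic chromosome axis, lies on chromosome IX, differed by 1.07 and was no longer called once that chromosome was centred (adjusted p = 0.32). Across leave-one-out fits 1 to 4 genes of the list were higher: 4 without RPD3 deletion replicate 1 or H3 tail deletion replicate 2, 2 without RPD3 deletion replicate 2, and 1 without H3 tail deletion replicate 1. The list had a median 0.71 above wild type in the RPD3 deletion and 0.29 above it in the H3 tail deletion.

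Of 32 genes that act in the middle and late parts of sporulation 27 passed the filter, and 8 of these were lower, against 1.3% of all genes, and none higher, with 25 differences below 0 and a median of -0.60. SPO75, needed to form the spore membrane, read 146 and 99.5 in the RPD3 deletion against 503 and 609 in the H3 tail deletion, a difference of at least 3.87-fold with the lower array at the floor (-1.95 ± 0.19, adjusted p = 5.08e-05). Both H3 tail deletion arrays were also above the wild-type values of 38.0, 22.2 and 51.7, and so was the double mutant with 789 and 593. SPS1, a sporulation kinase, read 140 and 240 against 530 and 576 (-1.59 ± 0.30), and LOH1 70.7 and 191 against 398 and 553 (-1.52 ± 0.30). SSP1, of the leading edge of the spore membrane, read 28.4 and 24.6 against 379 and 266, but wild type, at 433, 543 and 396, was like the H3 tail deletion. The other 4 were SPS19, which encodes a peroxisomal enzyme, SPO20, CDA1 and SPS18. The 8 became 3 without H3 tail deletion replicate 2, 2 without RPD3 deletion replicate 1 and 4 without RPD3 deletion replicate 2.

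Large differences were found in the COS family, membrane proteins encoded next to telomeres. COS8 read 202 and 587 in the RPD3 deletion and 4260 and 4922 in the H3 tail deletion, 13.3-fold lower (-3.73 ± 0.38, adjusted p = 5.89e-05). On this probe set the RPD3 deletion arrays were apart from each other, and COS8 was 7.80-fold lower without the first of them and 22.7-fold lower without the second. The COS8 probe set whose design flags no cross-hybridisation differed by less and had closer replicates, with 418 and 511 against 3134 and 3037 (-2.74). Another COS8 probe set differed by -3.30. COS7 read 486 and 714 against 4395 and 5392, 8.26-fold lower (-3.05 ± 0.28), and COS4 1391 and 1845 against 6974 and 6671, 4.26-fold lower (-2.09 ± 0.26). The wild-type values of these 3 genes lay between the mutants on every array, with 865 to 1636 for COS8, 1629 to 3209 for COS7 and 2446 to 3837 for COS4. The double mutant, with 4962 and 5271 for COS8, read like the H3 tail deletion. COS6 (-1.57) and COS10 (at least 3.25-fold) were lower too, although the other 2 probe sets of COS10, with -0.44 and -0.18, did not pass. The first of these read 37.3 and 13.5 against 206 and 176. Both RPD3 deletion arrays were under the floor there, so its difference is a bound. Of 12 COS genes 6 had a tested probe set of their own, and 5 of the 6 were called lower, against 1.3% of all genes. COS9, with a difference of -0.33, did not pass. COS genes are near-identical in sequence. Another 7 probe sets named COS genes jointly and all 7 were lower, against 1.46% of all probe sets. Which gene gives the signal cannot be told from them. In leave-one-out fits 4 or 5 of the 6 remained.

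The share of genes called lower was also read by distance from the chromosome ends, COS genes included. Of the 3 tested genes nearest to each end 15 of 96 (15.6%) were lower in the RPD3 deletion, of the next 3 it was 8.33%, of the 7th to 10th 5.47%, of the 11th to 20th 2.19%, and of those beyond the 80th 0.694%. The median log2 differences of the first and second of these bins were -0.44 and -0.17, and that of the innermost was 0.08. The 15 include the 5 COS genes and RPD3 itself, which lies near an end of chromosome XIV. Without COS genes and RPD3 the outermost bin held 9 lower genes of 90 (median -0.40) and the next 8 of 95 (8.42%), against 1.3% of all genes. Probe sets whose design flags no cross-hybridisation gave 9 of 64 in the outermost bin, 7 of 88 in the next and 7 of 121 in the one after. RPD3 and COS6 were not left out of this count and are both among the 9. Against wild type, the median of the outermost bin was -0.04 in the RPD3 deletion and 0.28 in the H3 tail deletion. In the outermost 10 genes of every end together 30 of 320 were lower and 3 higher, and 2 of the 3, SOA1 and AIM20, lie on chromosome IX; the remaining one is PEX2, which encodes a peroxisomal import protein and differed by 1.08, a call it lost with the sampling day as a block. Leaving out any 1 of the 4 arrays gave 16 to 19 lower genes.

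End genes outside the COS family included FIT2, AIF1 and HSP31. AIF1, which encodes a mitochondrial protein linked to cell death, read 63.5 and 92.7 in the RPD3 deletion, under the floor on both arrays, and 466 and 673 in the H3 tail deletion (at least 3.99-fold). HSP31, a stress-induced chaperone-like enzyme, read 2891 and 7700 against 18855 and 19336 (-2.02 ± 0.44, adjusted p = 0.026), and the day A difference of -2.71 was larger than that of day B (-1.33). PAU10, of the PAU cell-wall mannoproteins found at many ends, was lower by -0.90 ± 0.20. It was the only PAU gene to pass of the 10 with a tested probe set of their own. That call was lost without H3 tail deletion replicate 1 or 2 or RPD3 deletion replicate 1. Probe sets that name several genes are not in this count. With the sampling day as a block PAU4 and PAU13 passed (adjusted p = 0.0377 and 0.0176). The PAU median was -0.55, and 9 of the 10 had lower signals on both RPD3 deletion arrays than on both H3 tail deletion arrays, against 16.9% of all genes. PAU genes too share sequence, so their signals can come from one another.

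**Figure D4:**
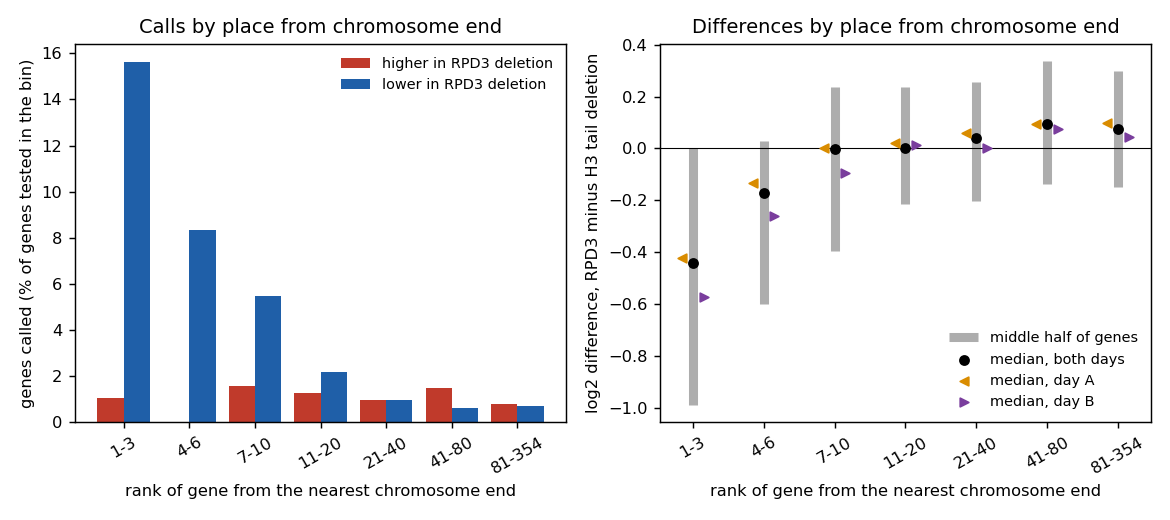
Left, percent of tested genes called higher (red) or lower (blue) in the RPD3 deletion by rank of the gene from the nearest chromosome end. Right, the log2 differences (RPD3 deletion minus H3 tail deletion) in the same bins as medians over both days, medians of each day and the range between quartiles; lower calls drop from 15.6% in the outermost bin to 0.694% beyond the 80th gene.

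Several genes for making NAD and importing its precursors were lower in the RPD3 deletion. This list of 14 was drawn up after its values were seen, and 5 of its members passed, all lower, against 1.3% of all genes called lower. The median was -0.26, against 0.06 over all genes. BNA2, which opens the pathway from tryptophan to NAD, read 275 and 179 against 796 and 1074 (-2.06 ± 0.28, 4.16-fold, adjusted p = 0.0009). BNA4, BNA5 and BNA1, for later steps, differed by -1.89, -1.89 and -1.73, and the nicotinic acid permease gene TNA1, with 1054 and 910 against 4285 and 3514, by -1.99. Wild type was nearer to the RPD3 deletion for BNA2 (392, 253 and 355) and nearer to the H3 tail deletion for TNA1 (mean 3478). The other 9 members, among them BNA7, NPT1 and PNC1, did not pass, and leave-one-out fits gave 3 or 4. YJR079W, next to BNA2, differed by -2.65 with 227 and 173 against 1129 and 1362, but its other probe set by 0.00.

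Of 27 genes of the iron regulon, which is switched on when iron is short, 26 passed the filter, and 3 of these were lower in the RPD3 deletion, against 1.3% of all genes, and none higher. The median was -0.51. In 17 of the 26 both RPD3 deletion arrays lay under both others, against 16.9% of all genes. FIT2, a cell-wall mannoprotein that helps retain siderophore iron, read 773 and 561 against 2877 and 3194 (-2.20 ± 0.37, 4.61-fold, adjusted p = 0.00435), with 2215, 1603 and 769 in wild type. FIT1, of the same family, read 146 and 153 against 655 and 482 (-1.91 ± 0.27), and ARN2, a siderophore transporter, 286 and 352 against 736 and 762 (-1.24 ± 0.27). All 3 lie among the outermost 10 genes of a chromosome end. The high-affinity iron oxidase gene FET3, elsewhere in the genome, differed by -1.48 but did not pass. Without H3 tail deletion replicate 1 or 2 there were 2 such genes, and without RPD3 deletion replicate 2 there was 1.

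Genes of other function were also among the largest that were lower. MPC3, a subunit of the mitochondrial pyruvate carrier, read 128 and 178 against 639 and 1088 (-2.40 ± 0.33, 5.28-fold, adjusted p = 0.00105), and its wild-type values of 139, 86.8 and 99.3 were like those of the RPD3 deletion. RSC8, a subunit of the RSC chromatin remodeller, read 176 and 142 against 720 and 896 (-2.34 ± 0.56, adjusted p = 0.0434), with 1017, 667 and 2069 in wild type. It was the only gene of 25 in the list of RSC and SWI/SNF subunits to pass, against 1.3% of all genes called lower. IRC18 differed by -2.32. The serine synthesis gene SER3 (-1.30), the pyruvate kinase gene PYK2 (-1.23), the DNA-damage-induced gene HUG1 (-0.99) and the stress gene DDR2 (-1.02) were lower too. For FAS1, the β subunit of fatty acid synthase, 8 probe sets ranged from 0.18 to -4.20, so no level is given for the gene.

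Genes that define the mating type had no call. The alpha-factor gene MF(ALPHA)1 read 17047 and 17736 without RPD3, 23318 and 16663 without the H3 tail, and 19530 to 40152 in wild type. MF(ALPHA)2 read 313 and 834 against 628 and 2267, with 10551 to 17896 in wild type, so both mutants were under wild type. AFB1, which encodes a barrier protein against a-factor, came nearest (-0.82 ± 0.21, adjusted p = 0.0594) and passed with quantile normalization (0.0419) and with the actin covariate (0.0438). MF(ALPHA)2 passed without H3 tail deletion replicate 1 (adjusted p = 0.0484). In limma 0 of the 5 alpha-specific genes passed, while 3 were lower at an unadjusted p of 0.05, their median was -0.75, and HMRA1, at a silent mating-type locus, was under the floor on all 4 arrays. Of 13 haploid-specific genes HO and FAR1 were higher, against 0.991% of all genes, and the median of the list was 0.06. Without H3 tail deletion replicate 1 or 2 neither was called. Of 18 pheromone-induced genes 0 passed in limma, with 1 higher and 7 lower at an unadjusted p of 0.05 and a median of -0.36.

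The genes of the other subunits of Rpd3's own complexes did not pass. Of 14 genes of these complexes RPD3 alone passed, and the median was 0.08. SIN3, the scaffold on which Rpd3 is held, read 456 and 337 in the RPD3 deletion and 394 and 493 in the H3 tail deletion, and the groups overlapped. UME6 read 748 and 497 against 470 and 331 (0.63 ± 0.28, adjusted p = 0.339), and ASH1 3869 and 2569 against 5024 and 3721 (-0.46 ± 0.49).

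Differences of the histone genes with probe sets of their own did not pass. HTB1, for histone H2B, read 14442 and 14687 in the RPD3 deletion against 10910 and 11936, and HTB2 12821 and 14922 against 8891 and 12824. In limma 0 of the 4 tested histone genes passed, and 0 had an unadjusted p under 0.05, with a median of 0.36. The genes for H3 and H4 themselves share probe sets and were not read singly.

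In most lists of growth and metabolism genes few or none passed. Over all genes 0.991% were called higher and 1.3% lower, and a single call in a list below is not read as a result about that list. At an unadjusted p of 0.05 in limma, 500 of the 7851 probe sets tested were higher and 555 lower. In limma 0 of 81 cytosolic ribosomal protein genes passed (median 0.13, with 1 higher at an unadjusted p of 0.05). The count was 0 also for 48 genes of large-subunit assembly (median 0.27, 7 higher unadjusted), 47 of the TCA cycle and respiratory chain (-0.24, 2 lower) and 35 of the proteasome (0.19, 1 higher and 1 lower). It was 0 as well for 18 genes of gluconeogenesis (-0.42, 1 higher and 4 lower) and 19 hexose transporters and kinases (-0.49, 1 higher and 4 lower). Of 48 small-subunit processome genes UTP22 was lower (-0.93), though another probe set of it differed by -0.36, and UTP25, on chromosome IX, was higher (0.80). Of 37 general stress genes DDR2 alone passed, and the median of that list was -0.42. Of 19 genes of glycogen and trehalose PIG2 alone passed (0.96), which lies on chromosome IX and ran against the list's median of -0.56. Of 20 phospholipid genes INO1 alone passed, with a median of 0.36, and 11 members had both RPD3 deletion arrays above both others, against 23.2% of all genes. Of 53 small RNA genes SNR34, which guides modification of ribosomal RNA, was higher (1.14 ± 0.22), and of 71 mitochondrial ribosomal protein genes RSM25, on chromosome IX, was higher (0.85 ± 0.17). Of the 12 hypoxic genes COX5B, on chromosome IX, and AAC3 were higher, against 0.991% of all genes, with a median of -0.21. Once that chromosome was centred COX5B was no longer called (adjusted p = 0.179). The calls of INO1, UTP22, UTP25, DDR2, SNR34, RSM25, COX5B and AAC3 were all lost without H3 tail deletion replicate 2.

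**Figure D5:**
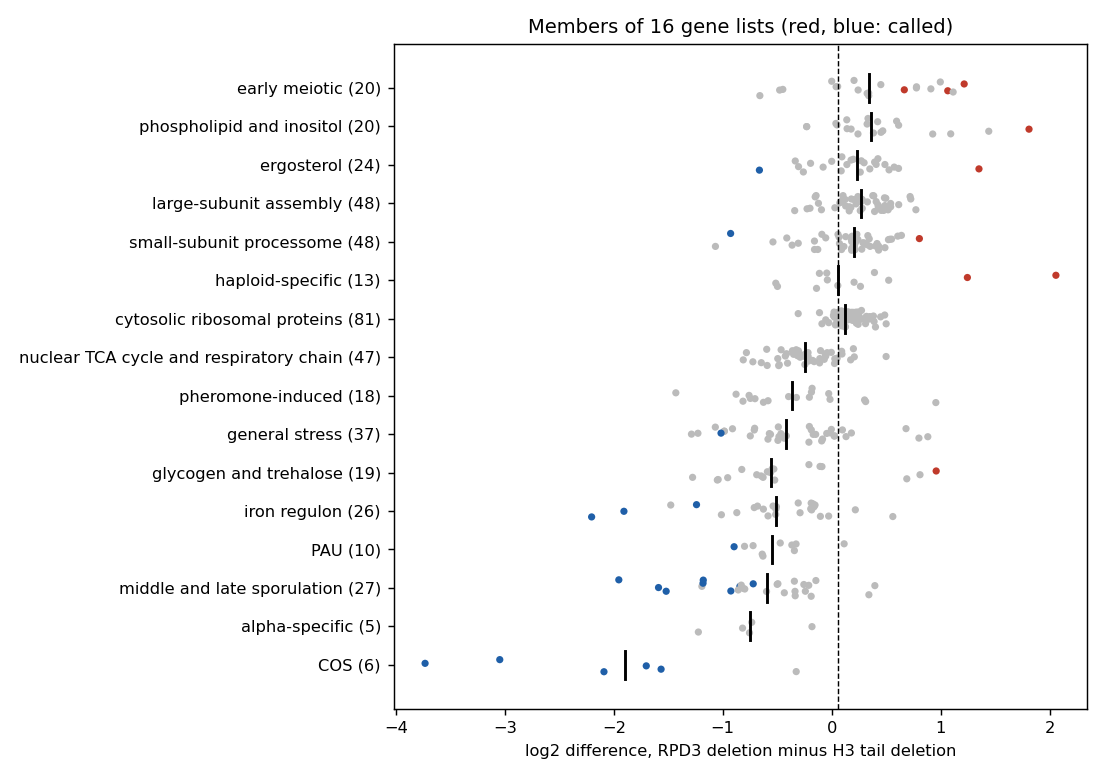
Log2 difference (RPD3 deletion minus H3 tail deletion) of each tested member of 16 gene lists, red where called higher, blue where called lower and grey where not called, with the list median as a black bar and the median of all genes (0.06) as a dashed line. The COS, sporulation and iron lists hold blue points only among their called members, and the early meiotic list red ones only.

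Wild type and the double mutant placed the differences. Of the 71 probe sets that were higher in the RPD3 deletion, the wild-type mean was nearer to the H3 tail deletion in 58 and under both mutants in 34. Of the 115 lower ones, the wild-type mean was nearer to the RPD3 deletion in 79 and lay between the mutants in 83. The double mutant was nearer to the H3 tail deletion in 97 of the 115 lower ones, and above both single mutants in 48. For the 71 higher ones it was nearer to the RPD3 deletion in 31 and to the H3 tail deletion in 40. One wild-type array shared day B and the others came from other days, and the part of sampling day in these placements was not tested.

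Of 1462 tested probe sets with no gene name 26 were called, 13 higher and 13 lower. Over all probe sets tested 2.37% were called, 0.904% higher and 1.46% lower. Of 309 tested probe sets that name several genes 20 were called, all lower, and 7 of the 20 named COS genes only. The highest differences of all were in 4 unnamed probe sets with signals far under the floor on both H3 tail deletion arrays. The probe set 3953_at read 6216 and 4652 in the RPD3 deletion against 10.4 and 9.80, a difference of at least 38.4-fold, and 3952_at, 3951_at and 3954_at read no more than 40.5 there. The double mutant arrays read no more than 35.0 on these 4, while the H4 tail deletion arrays read 13172 and 17497 on 3953_at. H3 tail deletion replicate 2, whose header names the H4 tail deletion strain, thus read 9.80 like its own group. Likewise OLI1, a mitochondrial ATP synthase gene, read 18303 on that array and 2.70 on both H4 tail deletion arrays.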

How the data were processed

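The values are the deposited linear intensity of each probe set, which the authors had scaled to nearly equal 2% trimmed means (1501 to 1502 on the 18 arrays). The probe-level summary is not given in the sources used here. Array type, chip lot and strain entries, whose unit is other than a measurement, come from the run settings, per the file headers. Arrays were brought to 1 common trimmed mean, a floor was set at the 25th percentile over all arrays (140.2), and a probe set was tested if it exceeded the floor on 2 or more of the 18 arrays. One limma 3.58.1 fit (R 4.3.3) took all arrays, with group means, 10 residual degrees of freedom, trended empirical Bayes variance and two-sided Benjamini-Hochberg adjustment over 7851 probe sets. A difference with a whole group under the floor is a bound. Genes with several probe sets were read through the brightest, and names came from the platform annotation, matched to the R64 gene table for 6504 of 6504 single-gene probe sets, which also gave chromosome and gene order. The members and lists were chosen with earlier results of these data known. Named genes were the 12 largest called differences each way with a mean of at least 500 in the higher group, up to 4 called members of each list, the 4 largest each way at chromosome ends, and genes describing the strains; where fewer than 2 members of a list were called, its brightest tested members could be added. Replicate numbers pair the samples because the labels give both genotypes the same 2 sampling days (correlation of the deviations from the group means 0.342). Days and chip lots coincide in these 4 arrays. The fit was tested on simulated data with the residual spread of the main fit. It called 6% of 1.5-fold changes, 44% of 2-fold, 88% of 4-fold and 96% of 8-fold changes. A gene that did not pass may therefore still differ. The fit also called 9 of 7651 unchanged probe sets, so some calls may be false. The simulated noise was independent between arrays and held no shared shift of a day or of chromosome IX. The number of arrays limits the precision.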

Additional observations from a re-analysis of the deposited data

How the results depend on the processing

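Changes of scale, floor, filter or variance model gave 166 to 229 called probe sets, against 186, and the chip lot as a block gave 152 (54 higher, 98 lower), 130 of them shared. The fits with the day as a replicate block gave 0 (4 arrays) and 271, 175 of them lower (18 arrays), and the 4 arrays without a block gave 0. Leave-one-out fits gave 97 to 147 called probe sets, 24 to 58 higher and 57 to 114 lower. Without the 3 arrays whose headers name another strain there were 121, 46 higher and 75 lower. Alternatives chosen after seeing the data were leaving out chromosome IX, which gave 45 higher, and centring it on each array, which gave 48 higher and 119 lower; plain probe sets at chromosome ends are in the report. The cause of these moves was not tested, beyond fewer arrays or genes entering the fit. Of 55 called genes chosen by the naming rule none changed sign, but 25 to 30 lost their call in each leave-one-out fit, 28 without the arrays with another strain in the header, 12 with the chip lot block, 8 with chromosome IX centred and all 55 in the 4-array fits. The remaining alternatives cost 1 to 8 calls each, and 17 of the 55 held in all but the 4-array fits. The 18-array day block lost HPA2 and PEX2 and added PAU4, PAU13, ADH2, MET17 and BAR1. Signals under the floor have no order, and with 2 arrays a genotype the number of arrays limits the precision.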
